A study of Mus musculus with 6 samples.

Results

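The 10 genes described here encode brakes on mitogen-activated protein kinase (MAPK) signaling in synovial fibroblasts. They are the dual-specificity phosphatases Dusp2, Dusp4, Dusp5, Dusp6 and Dusp10, the Sprouty genes Spry1, Spry2 and Spry4, and the Sprouty-related genes Spred1 and Spred2. They were taken by gene symbol from the deposited count table, which held 24348 genes, and 10 of 10 were present. Fibroblasts had been sorted by flow cytometry from collagenase-digested synovium, the lining tissue of joints, of adult wild-type C57BL/6 mice, on the C57BL/6J background by the study's methods. Of the 6 libraries, 3 came from mice injected intravenously with immune complexes (IC), here of ovalbumin with rabbit antibody against it. The other 3 came from mice injected with vehicle, and no transgene, deletion or further treatment distinguished the groups. The study's methods give mice of both sexes and an age range in weeks for its in vivo work as a whole. The interval between this injection and tissue collection and the number of mice in each library are not given for these samples, so p-values measure the spread between libraries.

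Growth factors acting on receptor tyrosine kinases switch on RAS, RAF, MEK and finally the kinase ERK, while stress and cytokines act mainly through the kinases JNK and p38. DUSP proteins remove the activating phosphates from these kinases, and Sprouty and Spred proteins act further upstream, at the level of receptors, RAS and RAF. Many of these genes are themselves switched on by the pathway, which makes them negative feedback regulators. In synovial fibroblasts, MAPK signaling is known for driving cytokine and matrix protease expression in arthritis. The question addressed was whether transcripts of these feedback genes differed in fibroblasts after systemic IC challenge.

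The 10 are protein-coding genes, placed on GRCm38 by GENCODE. The phosphatase genes lie on the plus strand, with Dusp2 at chr2:127336159-127338376, Dusp4 at chr8:34807297-34819894, Dusp5 at chr19:53529109-53542431, Dusp6 at chr10:99263231-99267489 and Dusp10 at chr1:184013302-184075636. The plus strand also holds Spry1 at chr3:37639947-37644598, Spred1 at chr2:117121374-117182279 and Spred2 at chr11:19924375-20024026, and the minus strand Spry2 at chr14:105891947-105896819 as well as Spry4. Counts cover whole genes, so no value here belongs to a single exon. Dusp5 shares 547 bases of exon with an antisense gene model that was not analysed here. That model was not counted separately, and the use of strand in counting is not stated. How reads of the bases shared with Dusp5 were assigned is therefore not known.

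For the 4 members most discussed here, the bases just before their transcription starts are given 5′ to 3′ from RefSeq (GRCm38.p6). Capitals mark matches to 4 motifs searched on both strands. The motifs were the CArG box bound by serum response factor, the core CGGAA of sites for ETS factors, the half-site TGACG of the cyclic AMP response element, and the GC box GGGCGG.
Dusp5 (chr19:53528895-53529108, plus strand): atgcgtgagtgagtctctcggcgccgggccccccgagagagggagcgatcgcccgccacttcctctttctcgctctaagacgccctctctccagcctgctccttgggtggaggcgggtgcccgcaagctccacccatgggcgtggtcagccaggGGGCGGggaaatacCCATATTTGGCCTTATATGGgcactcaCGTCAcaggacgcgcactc
Dusp6 (chr10:99262981-99263230, plus strand): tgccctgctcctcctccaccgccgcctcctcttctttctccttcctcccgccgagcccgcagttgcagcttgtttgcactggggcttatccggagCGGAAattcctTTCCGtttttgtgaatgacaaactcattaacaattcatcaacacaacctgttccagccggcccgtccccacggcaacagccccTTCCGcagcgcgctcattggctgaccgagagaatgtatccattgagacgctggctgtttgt
Spry1 (chr3:37639697-37639946, plus strand): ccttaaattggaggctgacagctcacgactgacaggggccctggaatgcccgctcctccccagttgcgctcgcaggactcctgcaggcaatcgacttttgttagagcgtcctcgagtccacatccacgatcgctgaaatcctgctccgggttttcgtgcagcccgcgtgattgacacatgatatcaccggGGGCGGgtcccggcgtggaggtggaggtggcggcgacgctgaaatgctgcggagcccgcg
Spry2 (chr14:105896820-105897069, minus strand): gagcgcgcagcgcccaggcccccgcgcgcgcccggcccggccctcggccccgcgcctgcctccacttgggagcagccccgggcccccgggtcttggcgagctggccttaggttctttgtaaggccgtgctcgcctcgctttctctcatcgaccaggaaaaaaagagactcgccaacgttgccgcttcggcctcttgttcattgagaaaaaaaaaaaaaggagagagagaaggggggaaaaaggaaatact

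Dusp5 and Dusp6 are shown because they are the ERK-selective phosphatases among the members, and Spry1 and Spry2 because they had the smallest p-values among the members. The Dusp5 window was ended where the GENCODE gene begins. Dusp5 carried 2 CArG boxes directly next to each other, 82 to 73 and 72 to 63 bases before the RefSeq start, together with 1 TGACG half-site and 1 GC box. It also had 1 ETS core, 10 to 6 bases before the RefSeq start, past the end of the printed window. A CArG box occurred in the 250 bases before the start in 1.47% of all 32851 promoters in the RefSeq table, and of the 8 members found there 1, Dusp5, held it. Dusp6 carried the ETS core 3 times. That core was present in 25.2% of all promoters and in 4 of the 8 members. The GC box was present in 32.7% of all promoters and in 6 of the 8 members, Spry1 among them, and the TGACG half-site in 17.8% and in 2 members. Spry2 had none of these letters in its window. A match describes the sequence only, and promoters of Dusp4 and Spry4 were not analysed here.

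All 10 members were measured well above the count minimum, with means of 158 to 6997 normalized counts, which are counts divided by the library's size factor. Levels of different genes were compared per exon length, as RPKM (counted reads scaled by exon length and library total). In vehicle libraries Spry2 was the highest, with 47.8 ± 0.963 RPKM (SD, n = 3), which was above the next gene, Spry1, in every library. Spry1 (24.6 ± 1.74 RPKM) lay above Spred1 (22.2 ± 1.77) within each vehicle library. The margin was small in vehicle replicate 1 (24.4 against 24.3 RPKM), and the vehicle ranges of these genes overlapped. Dusp5 followed with 17.5 ± 1.62 RPKM, and its 3 vehicle values lay below those of Spred1 and above those of Dusp6.

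Dusp6 (14.5 ± 0.946 RPKM) and Spry4 (13.5 ± 1.48 RPKM) overlapped in vehicle libraries, and Spred2 (12.2 ± 0.651 RPKM) lay just below Spry4. Dusp10 had 9.33 ± 0.608 RPKM, Dusp2 had 5.97 ± 0.588 RPKM and Dusp4 had 1.09 ± 0.118 RPKM. The vehicle ranges of these 3 genes did not overlap each other, and Dusp4 was the least abundant member in each of the 6 libraries. After IC, Spry2 was again highest with 40.1 ± 2.80 RPKM. The means of Spred1 (20.7 ± 0.235 RPKM) and Spry1 (20.1 ± 1.57 RPKM) stood in the other order after IC, with overlapping values.

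**Figure D1:**
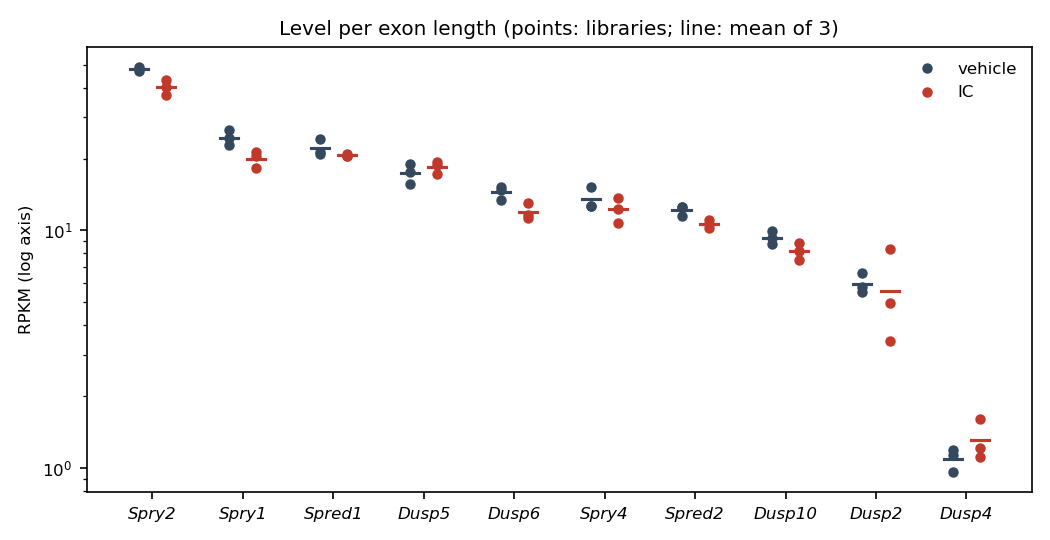
RPKM of each of the 10 genes in each library on a log axis, ordered by the vehicle mean. Points are libraries (vehicle dark, IC red) and lines are means of 3; Spry2 lies highest in both groups, with means of 47.8 and 40.1 RPKM, and Dusp4 lowest, with 1.09 and 1.31 RPKM.

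No member passed the test for a difference between IC and vehicle. DESeq2 called 0 of 10 at an adjusted p under 0.05, where it called 2.1% of all 19925 genes tested (1.07% lower and 1.03% higher after IC), and edgeR also called 0 of 10 (0.186% of all genes). At an unadjusted p under 0.05, DESeq2 had 4 members (Spry1, Spry2, Dusp6 and Spred2) and edgeR had 4, all lower after IC, where 4.88% of all genes were lower at that level with DESeq2 and 4.84% with edgeR. The members' values were nonetheless mostly lower after IC, as 8 of 10 log2 fold changes were below 0 (50.4% of all genes). For 6 of 10 members, Dusp6, Dusp10, Spry1, Spry2, Spred1 and Spred2, every IC library lay below every vehicle library. This held for 7.67% of all genes and for 8.52% of the 11103 genes with means in the members' range. With size factors from total counts it held for 5 members. In RPKM, Dusp10 overlapped, at 8.85 in IC replicate 3 and 8.75 in vehicle replicate 2. No member had every IC library above every vehicle library, which held for 8.09% of all genes. The median log2 fold change was -0.17 over the members and -0.00187 over all genes tested. The members were chosen with earlier results of these data known, and they were not tested as a set.

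**Figure D2:**
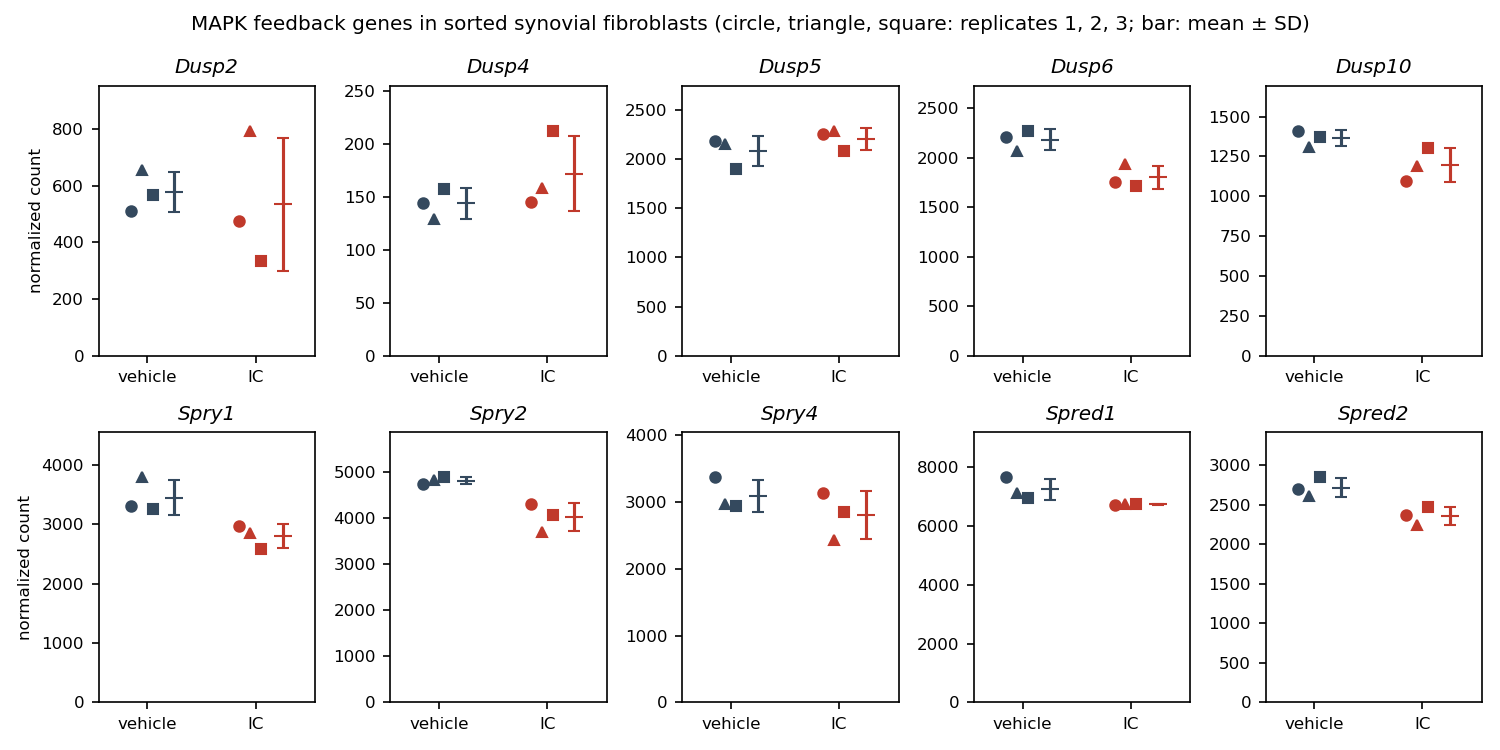
Normalized counts of the 10 genes in the 3 vehicle and 3 IC libraries, with each axis starting at 0. Symbols mark replicates 1, 2 and 3 and bars give mean ± SD; the groups do not overlap for 6 genes, and Dusp2 has 1 IC library, replicate 2, far above the other 2.

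Among the phosphatases, Dusp6 acts mainly on ERK in the cytoplasm. Its IC replicates 1, 2 and 3 had 1754, 1932 and 1715 normalized counts, and its vehicle replicates had 2211, 2069 and 2269. The highest IC library was thus below the lowest vehicle library. The means were 1800.4 ± 115 and 2183 ± 103 (SD, n = 3 each). This was a log2 difference of -0.28, with a 95% interval of -0.48 to -0.07, and DESeq2 gave an adjusted p of 0.159 where edgeR gave 0.280.

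Dusp5, also selective for ERK but nuclear, differed from Dusp6 in its values. Its IC libraries had 2248, 2283 and 2078 normalized counts and its vehicle libraries 2184, 2147 and 1902. The groups overlapped. The log2 fold change was 0.08 with a 95% interval of -0.12 to 0.29 and an adjusted p of 0.888 by DESeq2, and it was 0.02 without vehicle replicate 3.

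Since both are ERK phosphatases, the ratio of Dusp6 to Dusp5 counts was taken within each library, which does not depend on the size factor; this pair was chosen after its values were seen. The ratio was 0.780, 0.846 and 0.825 in IC replicates 1, 2 and 3 and 1.01, 0.963 and 1.19 in vehicle replicates. The IC ratios all lay below the vehicle ratios, with means of 0.817 ± 0.0336 and 1.06 ± 0.121. A two-sided exact permutation test gave p = 0.1, the smallest that 3 against 3 libraries can give, so this test could not pass the threshold whatever the ratios.

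Dusp10 prefers JNK and p38 over ERK. Its normalized counts were 1096, 1188 and 1304 in the IC libraries and 1409, 1312 and 1374 in the vehicle libraries. The groups did not overlap, but the gap between the highest IC and the lowest vehicle library was small. The log2 fold change was -0.19 with a 95% interval of -0.43 to 0.05 and an adjusted p of 0.620 by DESeq2.

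Dusp2 and Dusp4, inducible nuclear phosphatases, were the 2 least abundant members and the least precisely measured. Dusp2 had 475, 793 and 333 normalized counts in IC replicates 1, 2 and 3, so replicate 2 stood above every vehicle library (512, 655 and 565) while the other 2 IC libraries lay below them. The 95% interval of its log2 fold change, -0.61 to 0.38, allows a change in either direction, and the adjusted p was 0.954 by DESeq2. The fold change was above 0, at 0.14, without IC replicate 3, and it was -0.52 without IC replicate 2.

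For Dusp4, normalized counts were 145, 158 and 212 with IC and 144, 129 and 158 with vehicle. The highest IC library set its mean apart, and the groups overlapped. Its log2 fold change was 0.26, with a 95% interval of -0.31 to 0.83 and an adjusted p of 0.869 by DESeq2. This was the highest value of the members, but without IC replicate 3 it was 0.08, under those of Dusp5 (0.12) and Dusp2 (0.14) in the same fit.

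Sprouty proteins are induced by receptor tyrosine kinase signaling and restrain it. Spry1 had 2974, 2845 and 2577 normalized counts in the 3 IC libraries and 3299, 3788 and 3259 in the 3 vehicle libraries. The groups did not overlap, with means of 2799 ± 203 and 3449 ± 294. The log2 fold change was -0.30 (95% interval -0.50 to -0.10), the lowest of the members. DESeq2 gave an adjusted p of 0.0926, and edgeR 0.242. The gene model Gm42922 on the opposite strand shares 710 bases of exon with Spry1. It was counted separately, and its counts were not analysed here. The use of strand in counting is not stated, so how reads of the shared bases were assigned is not known.

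Spry2 had 4301, 3696 and 4054 normalized counts in IC replicates 1, 2 and 3 and 4727, 4812 and 4876 in vehicle replicates. Its vehicle libraries were close together and all above the IC libraries, with means of 4805 ± 74.6 and 4017 ± 304. The log2 fold change was -0.26 (95% interval -0.43 to -0.08), and its adjusted p was 0.0974 with DESeq2 and 0.258 with edgeR. Without IC replicate 1 the log2 fold change was -0.31 with an adjusted p of 0.0499, which is the 1 fit in which a member passed the threshold.

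Spry4 stood at 3131, 2427 and 2844 normalized counts with IC and at 3363, 2967 and 2930 with vehicle. IC replicate 1 lay above 2 of the 3 vehicle libraries, so the groups overlapped. The log2 fold change was -0.14 with an adjusted p of 0.755 by DESeq2. It ranged from -0.05 without IC replicate 2, and -0.08 without vehicle replicate 1, to -0.23 without IC replicate 1.

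Spred proteins bind neurofibromin, the RAS GTPase-activating protein encoded by Nf1, and bring it to the membrane. Spred2 was counted at 2365, 2240 and 2471 with IC and at 2694, 2606 and 2842 with vehicle, in normalized counts. The groups did not overlap, with a log2 fold change of -0.20 (95% interval -0.39 to -0.01) and an adjusted p of 0.368 by DESeq2. Spred1, the member with the most counts, had 6717, 6757 and 6749 normalized counts after IC, a range far narrower than its 7653, 7139 and 6966 after vehicle. Every IC library lay below the vehicle libraries, but the log2 fold change was -0.11 and the adjusted p was 0.706 by DESeq2, with a value of -0.07 without vehicle replicate 1. Nf1 itself differed by -0.14 on the log2 scale (adjusted p = 0.582), and this gene was chosen for naming after its values were seen.

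**Figure D3:**
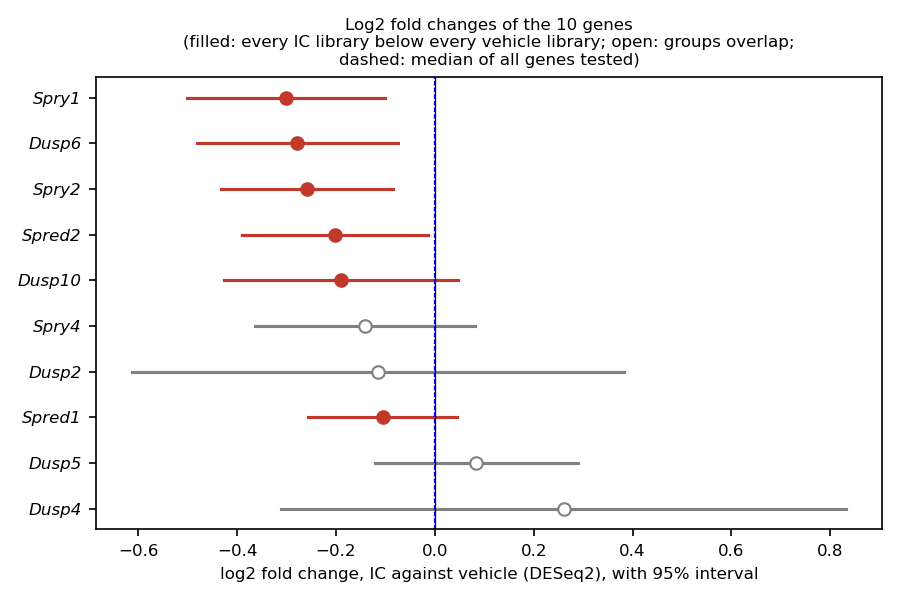
Log2 fold change of each gene, IC against vehicle, with its 95% interval from DESeq2. Filled red points mark genes whose groups did not overlap and open grey points those whose groups overlapped; the values run from -0.30 for Spry1 to 0.26 for Dusp4, and the intervals of Spry1, Dusp6, Spry2 and Spred2 lie below 0.

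Summed over the 10 genes, IC replicates 1, 2 and 3 had 525, 512 and 503 CPM (counts scaled to the same library total), and vehicle replicates had 606, 561 and 556 CPM. Each IC sum lay below each vehicle sum. The Spry genes contributed 189 to 217 CPM after IC and 227 to 245 CPM after vehicle, and the Spred genes 189 to 190 CPM and 198 to 223 CPM. The Dusp genes overlapped between groups, at 117 to 134 CPM and 128 to 139 CPM. Relative to its vehicle mean, the median member stood at 88.3%, 87.7% and 91.6% in the 3 IC libraries.

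Markers of other cells were also lower after IC in part. The 8 markers of muscle satellite cells summed to 52.4 to 106 CPM after IC and 116 to 195 CPM after vehicle, with no overlap and none at 0. On average 8 of 8 were lower, 2 of them called by DESeq2. By replicate 1, 2 and 3 these sums were 106, 79.1 and 52.4 CPM after IC and 167, 195 and 116 CPM after vehicle. From highest to lowest, the libraries stood in the same order for Spry1, and for no other member. How many of all genes tested stood in that order was not counted. No fit took up the satellite cell markers. The 12 skeletal muscle fibre markers summed to 16.2 to 32.2 CPM and 27.9 to 76.6 CPM, and the 12 endothelial markers to 226 to 311 CPM and 306 to 369 CPM, overlapping in both cases, with 2 and 3 called lower. The 10 fibroblast markers were far higher at 46247 to 48265 CPM after IC and 47197 to 57709 CPM after vehicle. Of these markers 8 of 10 were lower on average, 2 were called lower and 1 higher, and their median log2 fold change was -0.16, near the members' median of -0.17. In a fit that took up the skeletal muscle score, 0 members were called, and the log2 fold changes of Spry1 (-0.11, unadjusted p = 0.457 by DESeq2), Spry4 (-0.06) and Spred1 (-0.07) were nearer to 0 by more than 1.5 times. Those of Dusp10 (-0.30), Spred2 (-0.30) and Dusp5 (0.25) were further from 0 by more than 1.5 times, while Dusp6 (-0.34) and Spry2 (-0.25) moved less. Fewer cells of a type and less RNA per cell cannot be told apart in such bulk libraries, and the part of other cells in the members' values was not tested.

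**Figure D4:**
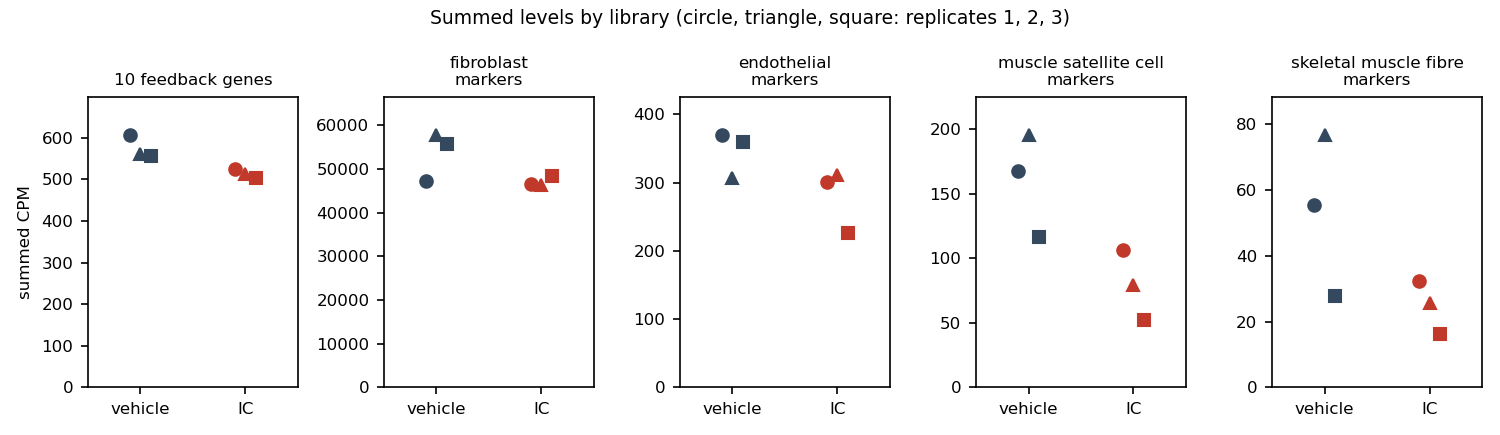
Summed CPM of the 10 feedback genes and of 4 marker lists in each library, with each axis starting at 0. Symbols mark replicates 1, 2 and 3; the feedback genes (503 to 525 against 556 to 606 CPM) and the satellite cell markers (52.4 to 106 against 116 to 195 CPM) are lower in every IC library, and the other 3 lists overlap.

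The rest of the pathway was read from lists of its parts. Of 21 other MAPK phosphatases and RAS-ERK inhibitors, 0 were called by DESeq2 and 0 by edgeR, and their median log2 fold change was 0.05. Dusp1, a nuclear phosphatase induced by stress, was counted at 47905 ± 2564 with IC and at 45027 ± 1201 with vehicle (adjusted p = 0.746 by DESeq2). Il17rd, a Sprouty-like inhibitor of FGF signaling, had 3714 ± 207 and 3295 ± 52.6 normalized counts, with every IC library above every vehicle library, opposite in order to Spry1 and Spry2, but it was not called (adjusted p = 0.438).

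Of 27 genes of the RAS-ERK cascade, 1 was called higher and 0 lower. It was Nras, a RAS GTPase, with 7038 ± 308 against 5738 ± 356 normalized counts and an adjusted p of 0.0237 by DESeq2 (0.178 by edgeR); the call was lost in 4 of the 6 fits that left out 1 library, with adjusted p up to 0.156 (IC replicates 2 and 3, vehicle replicates 2 and 3). Mapk3, which encodes an ERK kinase, stood at -0.14 on the log2 scale and was not called (adjusted p = 0.714). Of 21 genes of the JNK and p38 cascades and 12 receptor tyrosine kinase genes, 0 were called by DESeq2 and 0 by edgeR, and Fgfr1 stood at 0.08 on the log2 scale (adjusted p = 0.770). Named after their values were seen, Fgfr4 had 375 ± 258 normalized counts with IC and 1343 ± 346 with vehicle (log2 fold change -1.84, adjusted p = 0.0806 by DESeq2, 0.0967 by edgeR and 0.0416 by limma-voom), and Erbb3 had 1018 ± 137 and 729 ± 62.1 (0.48, adjusted p = 0.0537 by DESeq2). Neither gene's groups overlapped. Erbb3 is also 1 of the 8 Schwann markers summed here. Fgfr4 had 661, 304 and 160 normalized counts in IC replicates 1, 2 and 3. Its vehicle replicates had 1395, 1661 and 975. From highest to lowest, its libraries stood in the same order as in the satellite cell marker sums, an order not counted over all genes. The part of other cells in the values of Fgfr4 and Erbb3 was not tested. DESeq2 called 1 receptor gene with genes of a mean of at least 100 normalized counts and 1 with a term for the replicate number. It called 1 without IC replicate 1 or 2, and 2 without vehicle replicate 1.

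Ligands of these receptors gave the called genes with the highest and lowest fold changes of the 7 lists. Of 19 ligand genes tested, 2 were called higher and 1 lower by DESeq2. Fgf9, a fibroblast growth factor, rose from 192 ± 28.8 to 436 ± 16.3 normalized counts, 1.18 on the log2 scale. Its adjusted p was 9.79e-06 with DESeq2 and 0.0287 with edgeR, and the call held in 6 of 6 fits that left out a library. Ereg, which encodes the EGF receptor ligand epiregulin, was counted at 61.7, 59.9 and 176 with IC and at 28.7, 17.0 and 14.6 with vehicle (log2 fold change 2.29, adjusted p = 0.00507 by DESeq2). IC replicate 3 was far above the other 2, and without it the log2 fold change was 1.59 with an adjusted p of 0.283; without vehicle replicate 3 the adjusted p was 0.0606. Fgf10, a ligand of the receptor Fgfr2, fell from 1886 ± 412 to 1260 ± 64.5 normalized counts (log2 fold change -0.58, adjusted p = 0.00635 by DESeq2), and its adjusted p was 0.0590 when IC replicate 2 was left out, 0.0764 when IC replicate 3 was and 0.0648 when vehicle replicate 2 was. Without vehicle replicate 2 its log2 fold change was -0.39. By edgeR the adjusted p was 0.134 for Ereg and 0.129 for Fgf10, so edgeR called neither. Fgf2 had 4087 ± 279 normalized counts with IC and 4088 ± 166 with vehicle, and was not called.

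Several members are known as ERK-responsive genes, so other such genes were set beside them. Of 18 tested, 4 were called higher and 0 lower, while their median log2 fold change was 0.00424. Ier3, an early response gene, rose from 10624 ± 816 to 14370 ± 1363 normalized counts (log2 fold change 0.44, adjusted p = 0.000342 by DESeq2). The transcription factor genes Fosb and Myc rose by log2 fold changes of 0.28 (adjusted p = 0.00350) and 0.32 (adjusted p = 0.00591), and the urokinase receptor gene Plaur by 0.57 (adjusted p = 0.00932). Ier3 and Fosb kept their call in 6 of 6 fits that left out a library, Myc was not called without vehicle replicate 3 (adjusted p = 0.0834), and the call of Plaur was lost without IC replicate 1 (adjusted p = 0.0519), IC replicate 3 (0.121) or vehicle replicate 3 (0.0743). These 4 genes had adjusted p of 0.0870 to 0.152 by edgeR, which called none of them.

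Other genes of that list did not pass the test. Etv4 and Etv5, ETS factor genes known as targets of FGF signaling like the Spry genes, had log2 fold changes of 0.23 (adjusted p = 0.815) and -0.06 (adjusted p = 0.946), with overlapping groups. Egr1 had -0.07 (adjusted p = 0.880) and Fos 0.05 (adjusted p = 0.899). Immediate early transcripts were very abundant in both groups, with Fos at 231983 to 270933 normalized counts. Such genes are known to be induced by tissue digestion, and of 11 digestion and heat shock genes tested, Nr4a1 was called higher, with 82577 ± 1810 against 68489 ± 3364 normalized counts (adjusted p = 0.00637 by DESeq2, 0.178 by edgeR), and 0 were called lower. The part of digestion in the members' levels was not tested.

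**Figure D5:**
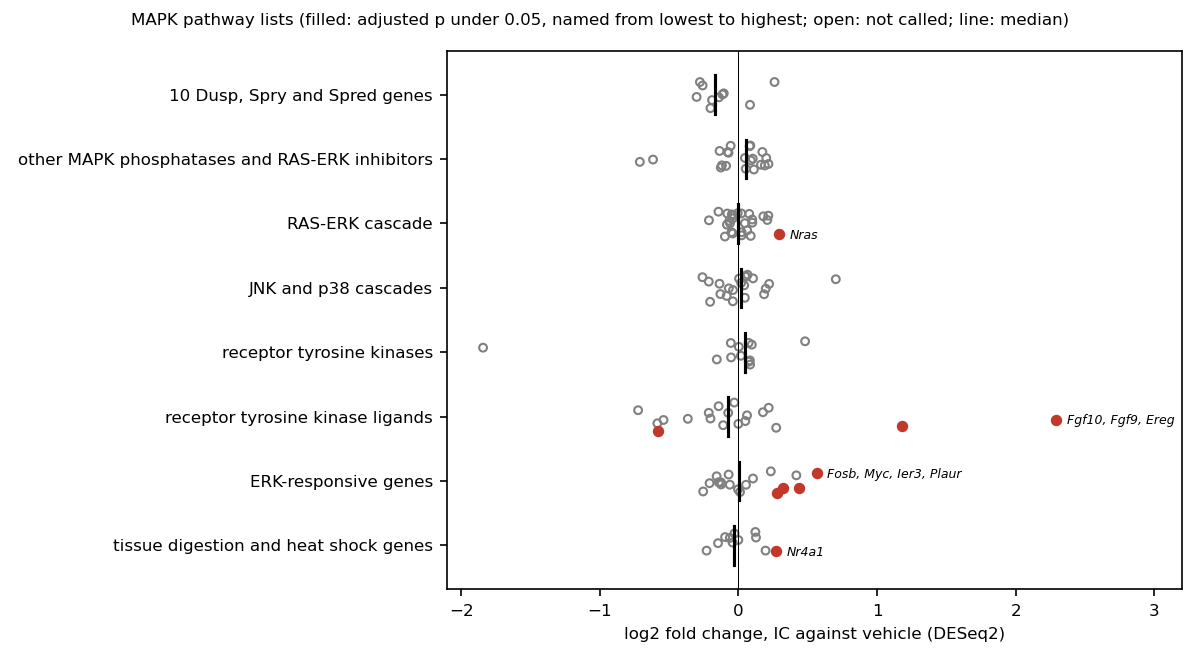
Log2 fold changes, IC against vehicle, of the 10 feedback genes and of 7 lists, with 1 point for each gene tested. The lists hold genes of the MAPK pathway, ERK-responsive genes, and tissue digestion and heat shock genes. Filled points passed an adjusted p under 0.05 and are named from lowest to highest, and lines are medians; the feedback genes have the lowest median (-0.17) with no call, and the ligand list holds the extremes among the called genes, Fgf10 (-0.58) and Ereg (2.29).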

How the data were processed

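RNA was sequenced from sorted synovial fibroblasts, with 3 IC and 3 vehicle libraries grouped by their labels. The deposited table holds unnormalized gene counts, produced by the authors with Trim Galore, FastQC, HISAT2 (build mm10) and featureCounts. Versions, annotation and strand settings are not given in the sources used here. The labels and the methods name different library kits. The methods name sva without its step. The columns of the deposited table were identical to the 6 per-sample files.

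A gene was tested when 3 or more libraries had 10 or more counts of it (19925 of 24348), and the rest held 0.0429% of counts. Total counts were 40114331 to 56714304 per library. The Wald test of DESeq2 (version 1.42.0), as in the study's methods, ran over all genes with treatment as the only term. Its Benjamini-Hochberg adjusted p under 0.05 made a call, 3870 genes got no adjusted p, and fold changes are unshrunken. Alternatives used edgeR (version 4.0.16, quasi-likelihood), limma-voom (version 3.58.1), sva (version 3.50.0), other size factors and filters, marker scores, a replicate block and each library left out. Scripts were tested on simulated data. Libraries of a group differed beyond sampling noise (chi-square per degree of freedom 15.2 to 68.4). Exon lengths and loci came from GENCODE M21 on GRCm38 (98.2% of symbols matched).

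The members and lists were chosen with earlier results of these data known. Named genes are all members, up to 5 called genes of each list, and Mapk3, Dusp1, Egr1, Fos, Etv4, Etv5, Il17rd, Fgfr1 and Fgf2. Nf1, Fgfr4 and Erbb3 were named after their values were seen. A further gene of this rule is not reported here. Other marker lists were also summed. Schwann markers summed to 52.4 to 136 CPM after IC and 54.3 to 107 CPM after vehicle, mural markers to 496 to 598 CPM and 582 to 628 CPM, and macrophage markers (9 of 12 in the table) to 33.9 to 52.2 CPM and 42.1 to 53.9 CPM. Lymphocyte markers (2 of 8) summed to 2.11 to 4.01 CPM and 2.91 to 4.53 CPM, and neutrophil markers (2 of 6) to 0.138 to 0.426 CPM and 0 to 0.141 CPM. Chondrocyte and bone markers summed to 678 to 772 CPM and 428 to 645 CPM, most of it Comp (622 to 720 CPM and 366 to 593 CPM), while 4 of 6 tested were lower after IC (median log2 fold change -0.32).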

Additional observations from a re-analysis of the deposited data

How the results depend on the processing

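Over 19 fits, Dusp6, Dusp10, Spry1, Spry2, Spry4, Spred1 and Spred2 were below 0 and Dusp5 above 0 in all 19. Dusp2 reversed to 0.13 with the skeletal muscle score, 0.11 with the endothelial score and 0.14 without IC replicate 3 (-0.52 to 0.14 over the fits without 1 library), and Dusp4 to -0.11 with the muscle score. The muscle score was below 0 in all IC libraries and, at -0.28, in 1 vehicle library, with no overlap between groups, so that fit cannot tell it apart from treatment well; the cause of the reversals was not tested. No member was called except Spry2 without IC replicate 1, so 0 to 1 members were called when 1 library was left out. All genes called numbered 419 by DESeq2, 37 by edgeR (12 higher, 25 lower), 62 by limma-voom and 26 with the muscle score. Pathway list genes called numbered 9 by DESeq2, 1 by edgeR, 2 by limma-voom and 1 with the muscle score. Leaving out 1 library gave 281 to 677 genes (677 without vehicle replicate 1) and 5 to 16 list genes, 16 without vehicle replicate 1 and 5 without vehicle replicate 3. Other size factors and filters left the count of genes within 1.5 times.

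Same-numbered libraries did not deviate together (correlations -0.0918, -0.164 and 0.0250). The labels do not say whether the numbers pair the samples. These correlations cannot decide it, because libraries of different numbers were not compared. With the replicate block DESeq2 called 320 genes, 0 members and 8 list genes, and edgeR called 22 genes, 0 members and 0 list genes. The 95% intervals of the 10 fold changes bound what these libraries could show.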
